A study of Mus musculus with 2 samples.

Results

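The 10 genes described here encode the T cell antigen receptor and the proteins that work with it. They are the CD3 chains *Cd3e*, *Cd3d* and *Cd3g*, the receptor constant genes *Trac*, *Trbc1* and *Trbc2*, the coreceptor chains *Cd4*, *Cd8a* and *Cd8b1*, and the kinase *Lck*. They were taken by name, and all 10 were among the 18049 genes listed in both expression tables. Each was followed by the authors' antibody class, by the authors' conjugation label and by library, and *Cd8a* was set beside the CD8a antibody measured on the same cells.

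The T cell antigen receptor is an alpha and a beta chain (or a gamma and a delta chain) that bind a peptide held by an MHC molecule. The bound receptor signals through the CD3 chains, which Lck phosphorylates after CD4 or CD8 brings it to the complex. CD4 binds MHC class II and CD8 binds MHC class I. Dendritic cells (DCs) present peptide to this receptor and are not known to assemble it, although *Cd8a* and *Cd4* are also transcribed in some DCs, where CD8 on the surface is a pair of alpha chains made without *Cd8b1*.

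The cells were live MHCIIhi CD11c+ B220- cells sorted from skin-draining lymph nodes of B6 mice and profiled by CITE-seq, in which the mRNA and 12 DNA-barcoded antibodies are counted in the same cell. The paper describes these MHCIIhi cells as migratory DCs. The naive library came from unimmunized mice, by the methods from pooled skin-draining nodes. The papain library came from mice given ovalbumin plus the protease allergen papain in both rear footpads, by the methods from popliteal nodes 1 day later. The sample labels instead name popliteal nodes for both libraries, so whether the node site differed is not settled. If it did, node site and immunization cannot be told apart. Neither was repeated: there was 1 library per condition, so no difference between the libraries carries a test. Intervals in brackets are exact 95% intervals that cover counting error only, and since UMIs (unique molecular identifiers, a count of captured mRNA molecules) of 1 cell are not independent, intervals of summed UMIs are too narrow.

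The naive library held 3471 cells with a median of 13764 UMIs and the papain library 7596 cells with a median of 14738. The authors' antibody classes were cDC1 (578 naive and 235 papain cells), LC (440 and 881), CD301blo cDC2 (658 and 1470), CD301bint cDC2 (659 and 1827) and CD301bhi cDC2 (707 and 2893). A further 429 naive and 290 papain cells had expression values but no row in the antibody table and hence no class; they are called cells without antibody data. In cells with no UMI of a receptor gene the median XCR1 antibody value was 1.31 in naive and 1.12 in papain cDC1s and at most 0.14 in every other class, and the CD326 value was highest in LCs (3.42 and 3.41), as the classes were cut. The libraries shared 2 cell barcodes, and no caller for doublets (droplets with more than 1 cell) was run.

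The 3 CD3 genes lie together on chromosome 9, with *Cd3g* and *Cd3d* in opposite directions and 1337 bases apart, so the bases before their starts are shown with those of *Cd3e* and of *Cd8a*, whose level followed another pattern than theirs. Of the 10 genes, 5 had an entry among the RefSeq windows of build GRCm38.p6. Each stretch ends at the outermost annotated start of its gene, reads 5′ to 3′ on the gene's strand, and carries in capitals any match, on either strand, to AGGAAG (ETS-like), TGTGGT (RUNX-like) or CANNTG (E-box).
Cd3g: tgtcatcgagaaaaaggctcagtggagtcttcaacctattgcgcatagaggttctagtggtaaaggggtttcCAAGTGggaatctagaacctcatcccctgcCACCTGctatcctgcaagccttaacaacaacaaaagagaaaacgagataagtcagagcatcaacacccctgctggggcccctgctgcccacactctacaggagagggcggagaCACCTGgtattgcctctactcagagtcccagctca
Cd3d: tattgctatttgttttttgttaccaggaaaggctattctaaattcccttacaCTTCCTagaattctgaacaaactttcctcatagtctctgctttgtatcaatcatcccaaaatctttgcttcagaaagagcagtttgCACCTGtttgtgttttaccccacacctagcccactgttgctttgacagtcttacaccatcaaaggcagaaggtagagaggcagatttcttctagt
Cd3e: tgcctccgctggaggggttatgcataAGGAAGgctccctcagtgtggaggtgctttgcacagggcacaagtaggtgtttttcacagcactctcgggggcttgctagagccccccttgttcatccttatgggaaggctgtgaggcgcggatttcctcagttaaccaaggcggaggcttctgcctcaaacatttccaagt
Cd8a: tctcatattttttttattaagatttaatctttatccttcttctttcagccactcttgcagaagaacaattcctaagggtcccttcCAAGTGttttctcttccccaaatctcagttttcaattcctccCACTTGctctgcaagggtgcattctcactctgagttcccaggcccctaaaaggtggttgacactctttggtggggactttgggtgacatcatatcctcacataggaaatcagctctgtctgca
The stretch of *Cd3g* is chr9:44980432-44980681 on the minus strand, that of *Cd3d* chr9:44981536-44981768 on the plus strand, that of *Cd3e* chr9:45009664-45009861 on the minus strand, and that of *Cd8a* chr6:71373177-71373426 on the plus strand. *Cd3g* held 3 E-box matches and *Cd8a* 2, *Cd3d* held 1 ETS-like and 1 E-box match, and *Cd3e* held 1 ETS-like match. Of all 32841 windows of 250 bases before a start, 29.5% held the ETS-like letters, 14.05% the RUNX-like letters and 66.2% the E-box letters. A match here is a description of the letters and not a site of binding. The CD8a antibody carried the 15-base barcode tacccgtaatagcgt, which was not shared with any other antibody of the panel.

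In the same build *Cd8a* (chr6:71373427-71379171) and *Cd8b1* (chr6:71322788-71337492) are neighbours 35934 bases apart. *Trbc1* (chr6:41538219-41539665) and *Trbc2* (chr6:41546730-41548181) are 7064 bases apart on the same chromosome and nearly identical in their coding sequence, so reads may be divided between them and their separate values are uncertain. *Trac* lies at chr14:54220521-54224198, *Cd4* at chr6:124864693-124888247 and *Lck* at chr4:129548344-129573641.

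The receptor complex genes, *Cd8b1* and *Lck* were higher in the cells without antibody data than in any class of either library. Levels are counts per 1000000 UMIs (CPM), with the UMIs of a group summed; reads came from the 3′ end of each transcript, so levels of different genes were compared without dividing by length. The 3 CD3 genes, whose products carry the signal of the receptor, stood at 96.5 CPM (*Cd3e*), 193.8 CPM (*Cd3d*) and 163.5 CPM (*Cd3g*) in naive cells without antibody data and at 202.7, 524.3 and 395.5 CPM in papain ones. The receptor constant genes, which form the stem of the alpha and beta chains, stood at 104.3 CPM (*Trac*), 159.4 CPM (*Trbc1*) and 281.0 CPM (*Trbc2*) in the naive and at 301.9, 419.6 and 658.3 CPM in the papain group. *Trbc2* was the highest of the 10 genes in this group of both libraries.

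In the naive classes the receptor complex genes were all highest in cDC1s and lowest in LCs or CD301bhi cDC2s. *Cd3e* was at 23.8 CPM in cDC1s (20.8 to 27.1), 8.13 CPM in CD301blo, 5.23 CPM in CD301bint and 1.31 CPM in CD301bhi cDC2s, and 1.32 CPM in LCs (0.530 to 2.71). *Cd3g* followed with 46.03 CPM in cDC1s, 8.45 CPM in CD301blo, 5.999 CPM in CD301bint and 1.14 CPM in CD301bhi cDC2s, and 1.13 CPM in LCs. *Cd3d* was at 37.8 CPM in cDC1s, 7.37 CPM in CD301blo, 8.03 CPM in CD301bint and 1.93 CPM in CD301bhi cDC2s, and 2.63 CPM in LCs. For all 3 chains the counting intervals of CD301blo and CD301bint cDC2s overlapped each other, and so did those of CD301bhi cDC2s and LCs. *Trac* ran from 25.9 CPM in cDC1s to 2.01 CPM in CD301bhi cDC2s (1.28 to 3.02), and *Trbc2* ran from 58.3 CPM in cDC1s through 19.6 CPM in CD301blo cDC2s to 4.29 CPM in CD301bhi cDC2s.

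The papain classes lay closer together. *Cd3e* lay between 0.709 CPM in LCs and 4.23 CPM in cDC1s (2.25 to 7.24), *Cd3d* between 1.88 CPM in CD301bhi cDC2s and 7.81 CPM in cDC1s, and *Cd3g* between 1.19 CPM in CD301bhi cDC2s and 4.88 CPM in cDC1s. *Trac* lay between 3.14 and 4.36 CPM in every papain class, where the intervals of cDC1s, LCs, CD301blo and CD301bint cDC2s all overlapped. *Trbc2* lay between 2.43 CPM in CD301bhi and 6.84 CPM in CD301bint cDC2s.

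Counted at 2-fold, 6 of the 10 genes were higher and 2 lower in naive cDC1s than in naive CD301blo cDC2s, where 7.66% of all genes were higher and 13.9% lower. The 6 higher ones were the receptor complex genes and the 2 lower ones *Cd4* and *Cd8a*. All 10 were higher in naive cDC1s than in LCs (9.92% of genes higher, 11.1% lower) and in naive CD301blo than in CD301bhi cDC2s (12.5% higher, 2.68% lower). The papain counts were smaller. There 4 of 10 were higher in cDC1s than in CD301blo cDC2s (5.88% of genes higher, 12.7% lower), 7 in cDC1s than in LCs (6.82% higher, 16% lower) and 3 in CD301blo than in CD301bhi cDC2s (7.78% higher, 3.23% lower), and none of the 10 was lower.

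**Figure D1:**
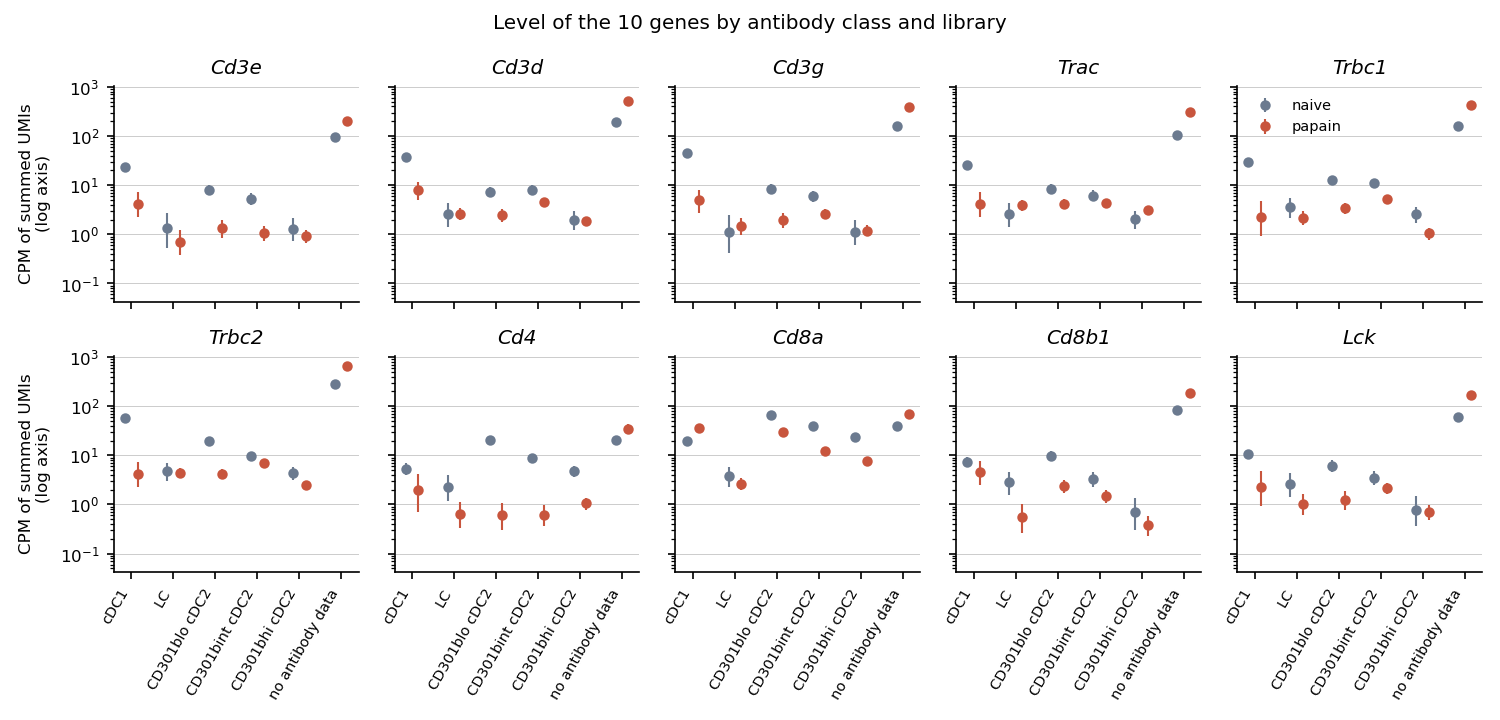
Level of each of the 10 genes as CPM of summed UMIs (log axis) in the 5 antibody classes and in the cells without antibody data, naive and papain libraries, with exact Poisson 95% intervals (counting error only; 1 library per condition). In the papain library the cells without antibody data are highest for all 10 genes, whereas naive *Cd8a* is highest in CD301blo cDC2s (67.5 CPM) and naive *Cd4* is level there and in the cells without antibody data (20.7 CPM).

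The coreceptor genes divided into 2 patterns. *Cd8b1*, the beta chain that conventional CD8 T cells add to the alpha chain, was like the CD3 genes highest in cells without antibody data. It was at 85.3 CPM in naive and 187.1 CPM in papain ones against 0.701 to 9.86 CPM in naive and 0.376 to 4.56 CPM in papain classes. Unlike the CD3 genes, it was not highest in cDC1s among naive classes (7.27 CPM, 5.655 to 9.20). It stood at 9.86 CPM in CD301blo cDC2s (7.94 to 12.1), with overlapping intervals. *Cd8a* instead was at 67.5 CPM in naive CD301blo cDC2s (62.3 to 73.0), 39.3 CPM in CD301bint cDC2s, 23.7 CPM in CD301bhi cDC2s, 19.8 CPM in cDC1s and 3.76 CPM in LCs, beside 39.0 CPM in cells without antibody data. *Cd4* was at 20.7 CPM in naive CD301blo cDC2s (17.9 to 23.9), the same as the 20.7 CPM of the naive cells without antibody data, and at 2.26 to 8.71 CPM in the other naive classes. *Lck*, the kinase that the coreceptors carry, was at 60.9 CPM in naive and 169.7 CPM in papain cells without antibody data and between 0.692 and 10.5 CPM in the classes.

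With the classes of each library summed, 9 of the 10 genes were at least 2-fold higher in naive cells without antibody data (8.43% of the 17685 genes with at least 10 UMIs were). The folds were 11.7 for *Cd3e*, 16.3 for *Cd3d*, 12.6 for *Cd3g*, 11.2 for *Trac*, 13.1 for *Trbc1*, 14.2 for *Trbc2*, 18.0 for *Cd8b1*, 12.9 for *Lck* and 2.39 for *Cd4*. *Cd8a* was the exception at 1.19-fold (1.04 to 1.35). In the papain library all 10 passed 2-fold (28.4% of genes did), from 5.64-fold for *Cd8a* and 41.7-fold for *Cd4* to 220.7-fold for *Cd3g* (190.4 to 256.8). The 10 genes had a median log2 ratio of 3.67 (naive) and 7.31 (papain), against 0.07 and 0.27 for all genes tested. Both groups differed between the libraries: over all classes *Cd3g* stood at 13.0 CPM in the naive and 1.79 CPM in the papain library.

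Other genes of T cell receptor signalling and of the T cell lineage followed. Of a list of 28 such genes, 24 were at least 2-fold higher in naive cells without antibody data, 1 was lower and 3 were within 2-fold. All 26 papain ratios with enough UMIs were at least 2-fold higher. The 4 highest papain log2 ratios belonged to *Tcrg-C4* (9.56, with 1 UMI in all classes), *Trdc* (9.28, with 2 UMIs in all classes), the costimulatory receptor *Cd28* (7.86) and the adhesion receptor *Cd2* (7.66). The 4 lowest belonged to the kinase *Fyn* (1.30), the interleukin-7 receptor chain *Il7r* (1.88), the transcription factor *Tcf7* (2.27) and the adaptor *Lcp2* (2.37). These 4 were also well above 0 in the papain classes, *Il7r* at 123.4 CPM and *Tcf7* at 48.4 CPM.

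Per cell, the receptor complex genes were nearly all or nothing in the cells without antibody data. Of the 6 genes *Cd3e*, *Cd3d*, *Cd3g*, *Trac*, *Trbc1* and *Trbc2*, 4 to 6 had a UMI in 231 of 429 naive cells without antibody data (53.9%, 49.0 to 58.6) and in 237 of 290 papain ones (81.7%, 76.8 to 86.0). Only 2 naive and 4 papain cells of that group had 3 of the genes, while 162 and 40 had none. Among cells with a class, 89 of 3042 naive cells (2.93%, 2.36 to 3.59) and 48 of 7306 papain cells (0.657%, 0.485 to 0.870) had 4 to 6. More cells with a class, 255 naive and 517 papain ones, had exactly 1 gene. The bound of 4 genes was set after the distribution had been seen, and only 2 cells with a class in each library had exactly 3 genes and 5 naive and 7 papain ones exactly 4.

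**Figure D2:**
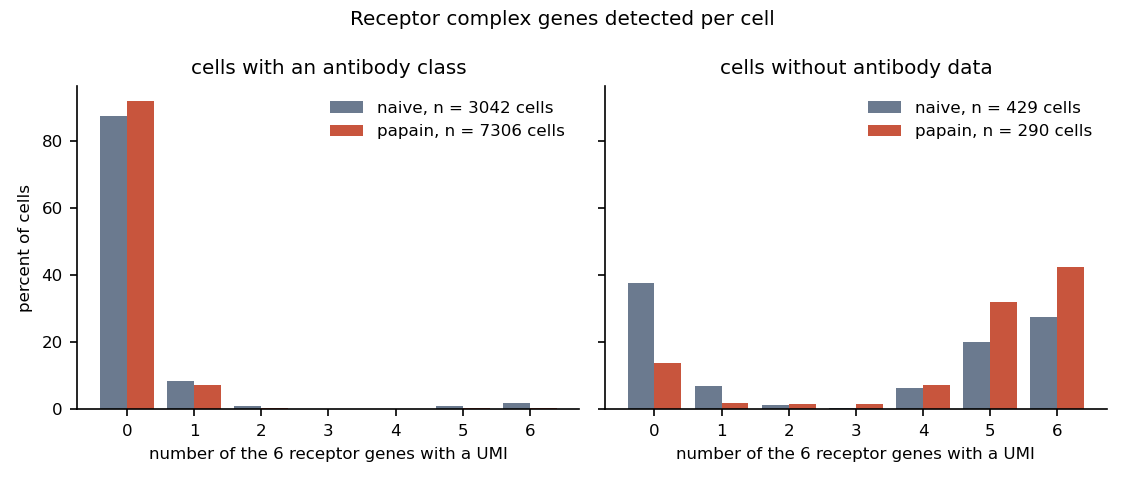
Percent of cells with 0 to 6 of the 6 receptor complex genes detected, for cells with an antibody class (left) and cells without antibody data (right), naive and papain libraries. With a class, 87.7% of naive and 91.97% of papain cells have none, while without antibody data the bars gather at 0 and at 5 and 6 genes.

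These few cells held most of the receptor UMIs. The 89 naive cells with a class and 4 to 6 genes carried 87.8% of the receptor UMIs of the naive classes, with a median of 33 receptor UMIs per cell (6 to 69). The 48 papain cells carried 68.1% of those of the papain classes, with a median of 24 (10 to 72). Cells without antibody data were alike in content, with a median of 29 receptor UMIs (8 to 114) for naive and 26 (8 to 99) for papain cells. The cells with 1 or 2 genes had a median of 1 receptor UMI in the classes of both libraries.

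Total depth separated the 2 sets. Cells with 4 to 6 genes and no antibody data had a median of 7554 (naive) and 6966 (papain) UMIs. Those with a class had 19452 and 21350.5 UMIs, against 13768 and 14775 in cells with a class and no receptor gene. The difference was not alike in every class. The 57 naive cDC1s among them had a median of 15783 UMIs against 15466 in cDC1s with no receptor gene. In naive CD301blo cDC2s the medians were 20568 and 12687, and in naive CD301bint cDC2s 25472 and 14080. The MHC class II mRNA of the 2 sets also differed, but both sets lay below the cells with a class and no receptor gene. *Cd74*, the invariant chain, was at 832.9 CPM in naive and 71.4 CPM in papain cells of the set without antibody data. It was at 3183 and 2669 CPM in the set with a class, and at 7676 and 4515 CPM in cells with a class and no receptor gene. The summed level of the 10 T cell markers was 4144 CPM (naive) and 4773 CPM (papain) in the cells without antibody data and 4 to 6 genes, and 2181 and 1562 CPM in those with a class. No marker of that list was at 0 in any of these 4 groups. Whether the cells with a class were doublets was not tested.

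Cells without antibody data and without a receptor gene had unlike median depths in the 2 libraries, but the wide papain interval contained the naive one. The 162 naive ones had a median of 25565.5 UMIs (23267 to 28570), and 39.5% of them lay in the deepest 5% of the library. The 40 papain ones had a median of 6648.5 UMIs (5209 to 29518), and 32.5% lay in the deepest 5%. Their 9 MHCII-high DC markers summed to 17965 CPM (naive) and 15959 CPM (papain), beside 20875 and 14121 CPM in cells with a class and no receptor gene. The 6 B cell markers summed to 175.1 and 300.5 CPM in them and to 29.6 and 10.1 CPM in the cells with a class.

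The coreceptors were read in the cells with 4 to 6 receptor genes. Of the 231 naive cells without antibody data, 114 had a *Cd8a* or *Cd8b1* UMI and no *Cd4* UMI, 47 had *Cd4* alone, 7 had both and 63 had neither. Of the 237 papain cells, the counts were 99, 54, 7 and 77. Cells with a CD8 gene were thus more numerous than those with *Cd4* in both libraries, although at these depths the absence of a UMI does not show the absence of the transcript. In the 231 naive cells 94 *Cd4* UMIs lay in 54 cells and 620 *Cd8b1* UMIs in 115 cells.

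*Cd8a* mostly came with *Cd8b1* in these cells and mostly without it in cells with a class and no receptor gene. Of 92 naive cells without antibody data, with 4 to 6 receptor genes and with a *Cd8a* UMI, 86 also had *Cd8b1*, as did 71 of 75 papain cells. Of 322 naive cells with a class, a *Cd8a* UMI and no receptor gene, 294 had no *Cd8b1* UMI, and of 554 papain cells 541 had none. The pair therefore differed between the 2 settings in both libraries, but not in every cell. In naive CD301blo cDC2s with no receptor gene, 16 of 94 cells with *Cd8a* also had *Cd8b1*. Of 27 naive cells with a class, 4 to 6 receptor genes and a *Cd8a* UMI, 7 had no *Cd8b1* UMI. *Lck* was detected in 79.2% of naive and 79.8% of papain cells with 4 to 6 receptor genes and no antibody data, in 73.0% and 79.2% of those with a class, and in 0.937% and 0.640% of cells with a class and no receptor gene.

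Among the classes, naive cDC1s held most of the cells with 4 to 6 receptor genes, 57 of the 89 (9.86% of cDC1s, 7.56 to 12.6). The share was 2.28% in CD301blo, 1.82% in CD301bint and 0.566% in CD301bhi cDC2s and 0.227% in LCs. In the papain library it was 1.28% of cDC1s (3 of 235, 0.264 to 3.69) and 0.476 to 0.931% of the other classes. The naive cDC1 cells carried 96.5% of the receptor UMIs of naive cDC1s.

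The 57 cells differed from the other naive cDC1s in their antibody values. Their median XCR1 value was 0.377 against 1.31 in the 460 cDC1s with no receptor gene, although XCR1 is an antibody by which cDC1s are known. Their CD172a value was 1.01 against 0.114, CD103 1.81 against 1.26, CD11c 1.37 against 1.80, CD326 0.758 against 1.72 and MHC_II 4.22 against 4.77. These are medians of the deposited natural log values. In mRNA, *Thy1*, a T cell surface protein, was at 280.5 CPM against 0.138 CPM, and *Irf8*, a transcription factor that cDC1s need, at 156.0 CPM against 617.6 CPM. *Xcr1* itself was at 16.8 CPM (9.78 to 26.9) and 16.2 CPM (13.4 to 19.4).

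Most of the 57 cells lacked a coreceptor UMI. *Cd4* alone was found in 10, a CD8 gene alone in 14, both in 1 and neither in 32. *Tcrg-C1*, a constant gene of the gamma chain, had a UMI in 22 of the 57 cells (48.4 CPM) and in none of the 460 cDC1s without a receptor gene (0 UMIs, at most 0.507 CPM by the counting interval). *Itgae*, which encodes CD103, was at 66.2 CPM against 0.963 CPM. *Trdc*, the delta constant gene, had a UMI in 3 of the 57. Among the cells with 4 to 6 receptor genes but no coreceptor UMI and no antibody data, which were shallower (medians of 6522 and 6315 UMIs against 15783), *Tcrg-C1* was in 5 of 63 naive and 1 of 77 papain cells and *Trdc* in 2 and 4. In the like cells with a class, also without a coreceptor UMI, *Tcrg-C1* was in 17 of 41 naive and 0 of 9 papain cells and *Trdc* in 3 and 0.

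The share of cells with at least 1 receptor UMI was 20.4% in naive cDC1s (17.2 to 23.9), 10.9% in LCs, 11.9% in CD301blo, 10.3% in CD301bint and 8.63% in CD301bhi cDC2s. In the papain library it was 8.09%, 12.9%, 6.60%, 7.33% and 7.71%. No DC class is known to make the receptor, so LCs served as a reference type, at 10.9% with a median of 10767.5 UMIs (naive) and 12.9% with 18290 UMIs (papain). Free RNA in the droplets was not measured. Of the other classes only naive cDC1s, at a median of 15806.5 UMIs, had an interval above that of the LCs of their library. With every cell thinned to 4000 UMIs (leaving out the 22 naive and 61 papain cells of the classes that were shallower) the share was 12.6% in naive cDC1s, 3.16 to 6.27% in the other naive classes and 2.20 to 3.69% in all papain classes.

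Cells without antibody data had a receptor UMI in 62.2% of naive (57.5 to 66.8) and 86.2% of papain cells (81.7 to 90.0). Thinned, the shares were 56.0% and 86.8%, without the 1 naive and 12 papain cells that were shallower. These cells had fewer UMIs to begin with (medians of 9593 and 6965.5) than the cells with a class (13979.5 and 14945).

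The authors' conjugation label sets apart cells called "Cd3e+ or Trac+". In all 3471 naive and 7596 papain cells it was the same as having a *Cd3e* or *Trac* UMI, so those 2 genes differ by construction and are given only as a description. It marked 182 naive cells with a class (5.98%), 322 papain cells with a class (4.41%), 237 naive cells without antibody data (55.2%) and 241 papain ones (83.1%). A further label was given to cells with both *Cd3g* and *Cd4* UMIs, 72 naive and 78 papain cells.

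The marked cells with a class were of 2 kinds. In the naive library 88 of the 182 (48.4%) had 4 to 6 receptor genes and 68 (37.4%, 30.3 to 44.8) were marked by *Trac* with no other receptor gene. Of the 322 papain cells, 48 (14.9%) had 4 to 6 genes and 241 (74.8%, 69.7 to 79.5) were marked by *Trac* alone, 214 of them by a single UMI. Without antibody data the label marked nearly pure receptor cells, with 4 to 6 genes in 229 of 237 naive and 235 of 241 papain cells. By class, 56 of the 78 marked naive cDC1s but 1 of 14 marked naive LCs and 6 of 64 marked papain LCs had 4 to 6 genes.

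**Figure D3:**
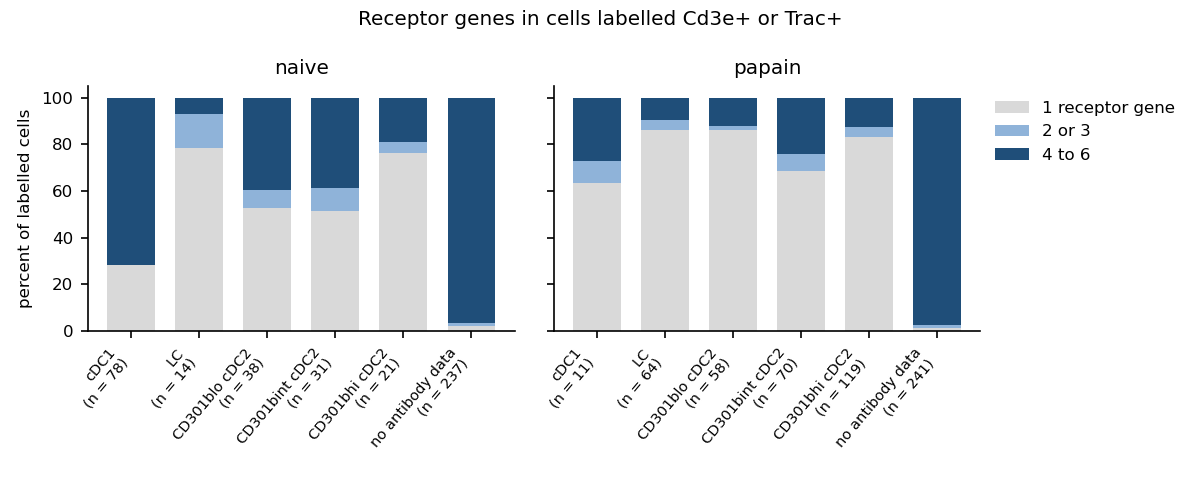
Composition of the cells labelled "Cd3e+ or Trac+" by antibody class and library, as the percent with 1, with 2 or 3, and with 4 to 6 of the 6 receptor complex genes; n is the number of labelled cells. Cells with 4 to 6 genes make up 71.8% of labelled naive cDC1s, 27.3% or less of each labelled papain class, and 96.6% and 97.5% of labelled cells without antibody data.

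The share of each gene among the receptor UMIs differed between the groups. *Trac* made up 12.5% of the receptor UMIs of the naive classes (11.4 to 13.6), 22.9% of those of the papain classes (21.1 to 24.9), and 10.5% and 12.1% in cells without antibody data. *Cd3g* made up 17.5% in the naive and 11.01% in the papain classes (9.65 to 12.5), beside 16.4% and 15.8% without antibody data. *Cd3e* made up 11.1% and 6.53% in the classes, beside 9.67% and 8.10%. There were 1.13 *Trac* UMIs per *Cd3e* UMI in the naive classes and 3.51 in the papain classes, beside 1.08 and 1.49 without antibody data. Of cells with a class and a *Trac* UMI, 56.7% (naive) and 18.9% (papain) had another receptor gene, against 98.6% and 98.7% without antibody data. The receptor UMIs of the papain classes thus did not keep the gene ratios of the papain cells without antibody data.

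The deepest cells were marked most often. With the cells of the classes ranked by depth into 4 equal bins, from shallow to deep, the label marked 38 of 760, 37 of 761, 31 of 760 and 76 of 761 naive cells. Of the papain cells it marked 3.01%, 2.85%, 4.44% and 7.33%. The naive share was thus higher in the deepest bin alone, and the papain share in the 2 deeper bins. For cells marked through a single receptor gene the shares were 1.84%, 3.02%, 3.03% and 3.29% in naive and 2.74%, 2.57%, 3.62% and 5.25% in papain cells.

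The other 8 genes were compared between marked and unmarked cells with a class. In the naive library 7 of 8 were at least 2-fold higher in marked cells (14.8% of genes were, and 4.17% were lower), and in the papain library 8 of 8 (8.33% of genes, with 3.27% lower). In naive marked cells *Cd3g* was at 176.6 CPM against 0.470 CPM, *Trbc2* at 234.6 against 3.32 CPM, *Lck* at 51.5 against 1.13 CPM and *Cd8b1* at 39.3 against 2.09 CPM. In papain marked cells *Cd3g* was at 28.2 CPM against 0.327 CPM and *Lck* at 15.6 against 0.424 CPM. *Cd8a* was the naive exception, at 43.9 CPM in marked and 32.1 CPM in unmarked cells. Without the cells with 4 to 6 receptor genes, 3 of 8 in the naive and 5 of 8 in the papain library passed, and *Cd3d* then lay lower in marked cells (log2 ratio -0.90 and -0.12), as did *Trbc2* in the papain library (-0.36). Of the marked cells then left, 85 naive and 259 papain ones had 1 receptor gene, against 9 and 15 with 2 or 3. That gene is *Cd3e* or *Trac* by construction, so they could hold no UMI of another receptor gene. The lower values thus follow largely from the label.

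All 10 genes were at least 2-fold lower in the papain than in the naive classes when the classes were summed (11.3% of all genes were, and 3.15% were higher), with a median log2 ratio of -2.17 against -0.09 over all genes. The mix of classes differed, with cDC1s making up 578 of 3042 naive but 235 of 7306 papain cells, and with the 5 classes weighted equally 7 of the 10 were at least 2-fold lower. *Cd4* was 10.4-fold lower (8.67 to 0.837 CPM), *Cd3e* 7.74-fold, *Cd3g* 7.26-fold, *Trbc2* 4.79-fold, *Trbc1* 4.59-fold, *Cd8b1* 4.39-fold, *Cd3d* 4.10-fold, *Lck* 3.86-fold, *Cd8a* 2.72-fold and *Trac* 2.49-fold. Of the list of 28 other T cell genes, 22 were at least 2-fold lower and none was higher. The share of cells with 4 to 6 receptor genes moved with this difference, from 2.93 to 0.657%. Without those cells the log2 ratio of *Trac* was 0.40, of *Cd3g* -0.12 and of *Cd3d* -0.51, while *Cd3e* (-1.49), *Trbc1* (-2.16), *Trbc2* (-1.80), *Cd4* (-3.93), *Cd8a* (-1.47), *Cd8b1* (-2.15) and *Lck* (-1.32) kept a ratio below -1.

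By class the count of genes at least 2-fold lower was 8 of 10 in cDC1s (14.2% of genes), 3 in LCs (8.68%), 10 in CD301blo (13.5%), 6 in CD301bint (11.3%) and 3 in CD301bhi cDC2s (9.08%), and none of the 10 was 2-fold higher in any class (4.03%, 7.38%, 5.05%, 5.19% and 6.48% of all genes were, in the same order). In cDC1s *Trbc2* went from 58.3 to 4.23 CPM and *Cd3g* from 46.03 to 4.88 CPM. In LCs the 6 receptor complex genes had log2 ratios from -0.89 to 0.55, and each interval included 0. In CD301bhi cDC2s *Cd3d* (1.93 and 1.88 CPM) and *Cd3g* (1.14 and 1.19 CPM) were level.

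Only *Cd8a* in cDC1s and *Trac* in CD301bhi cDC2s had a ratio whose interval lay wholly above 0. *Cd8a* was higher in papain than in naive cDC1s (36.1 and 19.8 CPM, log2 ratio 0.87, 0.52 to 1.21), and a single papain cDC1 held 36 of the 111 *Cd8a* UMIs as a single naive one held 33 of 188. *Trac* was at 3.14 CPM in papain and 2.01 CPM in naive CD301bhi cDC2s (0.64, 0.01 to 1.34). *Cd4* showed the widest difference of any gene and class, in CD301blo cDC2s, where it went from 191 UMIs (20.7 CPM) to 11 UMIs (0.609 CPM), a log2 ratio of -5.09 (-6.11 to -4.21).

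In cells without antibody data the direction was the opposite. There 8 of 10 genes were at least 2-fold higher in the papain library (7.92% of genes), with a median log2 ratio of 1.25, from *Cd4* (0.76) and *Cd8a* (0.81) to *Trac* (1.53). The share of this group with 4 to 6 receptor genes was also higher, at 81.7% against 53.9%. With each cell weighted equally, none of the 10 genes passed 2-fold, and without the deepest 5% of cells 3 did. For *Cd3d* the share of cells with a UMI was 55.9% in naive and 82.8% in papain cells without antibody data, while the UMIs per positive cell were 5.90 and 5.88. For *Cd3g* the shares were 53.6% and 79.7%, with 5.19 and 4.61 UMIs per positive cell.

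**Figure D4:**
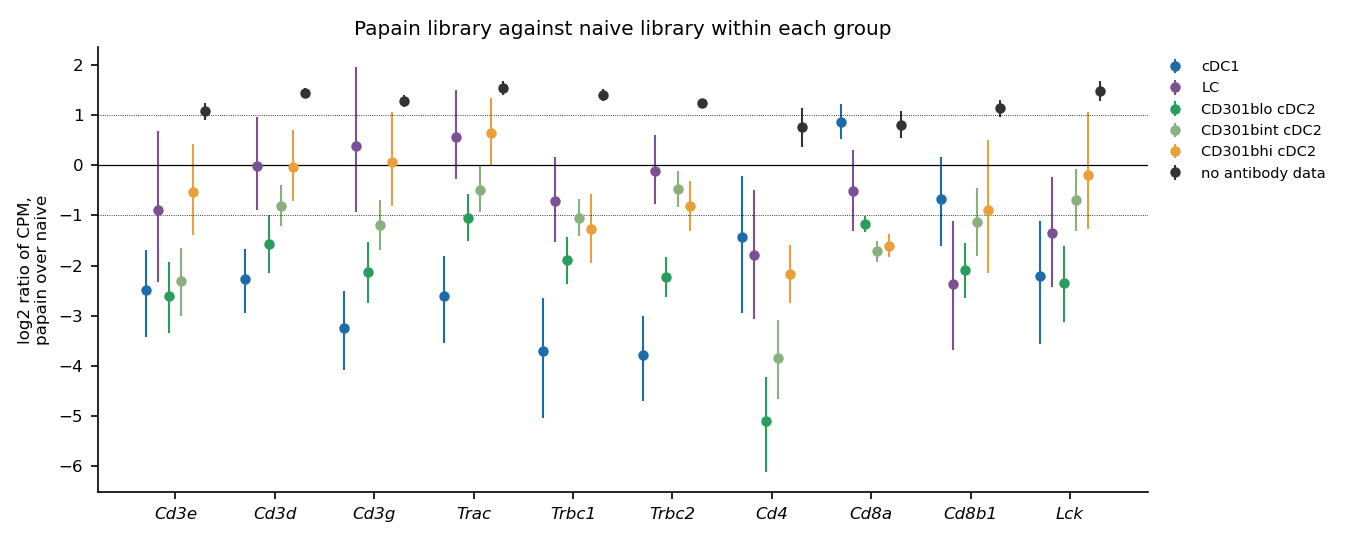
Log2 ratio of CPM, papain over naive library, for each of the 10 genes within each antibody class and within the cells without antibody data; bars are exact conditional binomial 95% intervals (counting error only) and dotted lines mark 2-fold. Cells without antibody data lie above 0 for all 10 genes, and the lowest point is *Cd4* in CD301blo cDC2s (-5.09).

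*Cd8a* in the DC classes lay mostly in cells without receptor genes. In naive CD301blo cDC2s, 513 of the 623 *Cd8a* UMIs (82.3%) lay in cells with no receptor UMI, and in CD301bhi cDC2s 95.9% did. Cells with 4 to 6 receptor genes held 5.77% of the *Cd8a* UMIs of the naive and 4.56% of those of the papain classes, but 47 of 188 in naive cDC1s. *Cd8a* was detected in 17.9% of naive CD301blo, 19.1% of CD301bint and 13.0% of CD301bhi cDC2s, 7.44% of cDC1s and 2.27% of LCs. The papain shares were 12.04%, 9.20%, 7.54%, 10.6% and 3.97%. The LC share was the lowest in both libraries, at a median of 10767.5 (naive) and 18290 (papain) UMIs per cell.

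The level of *Cd8a* in cDC1s was compared with that of the other classes. Naive cDC1s were below the other classes summed (19.8 and 36.4 CPM, log2 ratio -0.88, -1.11 to -0.66) and papain cDC1s above them (36.1 and 11.5 CPM, 1.65, 1.36 to 1.93). Without cells holding a receptor or *Cd8b1* UMI the ratios were -1.31 and 1.10. Against CD301blo cDC2s alone, naive cDC1s were lower (19.8 and 67.5 CPM). In the papain library the intervals of cDC1s (36.1 CPM, 29.7 to 43.5) and CD301blo cDC2s (30.0 CPM, 27.5 to 32.6) overlapped. A single papain cDC1 held 36 of the 111 *Cd8a* UMIs of its class, so the order of these 2 papain classes is not settled.

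The CD8a antibody, whose barcode is printed above, was higher in cells with more *Cd8a* UMIs in the cDC2 classes and cDC1s. In naive CD301blo cDC2s the median antibody value was 0.524 in cells with no *Cd8a* UMI (0.476 to 0.590), 1.58 with 1, 2.26 with 2 and 2.46 with 3 or more (2.28 to 2.62). In naive CD301bint cDC2s the medians were 0.437, 1.27, 1.85 and 2.14. In CD301bhi cDC2s they were 0.331, 0.830, 1.67 and 1.40, the last interval (0.879 to 1.86) overlapping the one before. Papain CD301blo cDC2s gave 0.354, 1.14, 1.60 and 2.14, so both libraries showed the same steps in this class.

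In cDC1s the antibody median was 0.323 in 535 naive cells without and 0.957 in 43 cells with a *Cd8a* UMI, a difference of 0.634, and 0.259 in 210 papain cells without and 1.17 in 25 cells with one, a difference of 0.906. In CD301blo cDC2s the differences were 1.80 and 1.20. In naive LCs the median was 0.183 in 430 cells without and 0.615 in 10 cells with a *Cd8a* UMI. In papain LCs the medians were 0.256, 0.319 and 0.384 with 0, 1 and 2 UMIs, and the cells with 2 were the deepest (32397 UMIs against 18112).

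**Figure D5:**
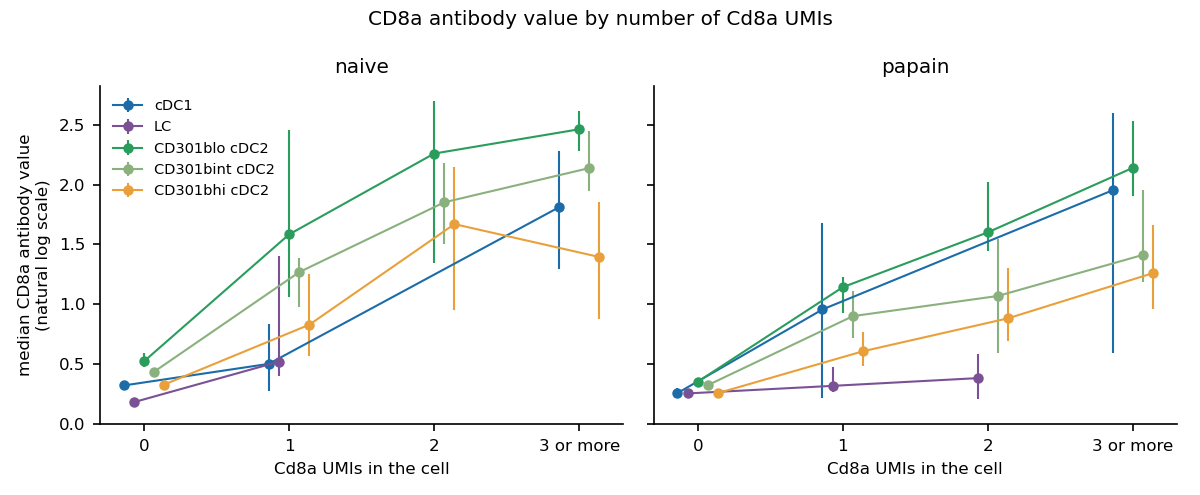
Median CD8a antibody value (natural log scale) of cells with 0, 1, 2 and 3 or more *Cd8a* UMIs, by antibody class, naive and papain libraries; bars are order-statistic 95% intervals of the median, and sets of few cells are left out, so some lines skip a step. In CD301blo cDC2s the median goes from 0.524 to 2.46 in the naive and from 0.354 to 2.14 in the papain library.

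The antibody value was also read in cells with *Cd8a* but without any sign of the receptor. Among cells with a *Cd8a* UMI but no receptor and no *Cd8b1* UMI, the median antibody value was 2.19 in 78 naive and 1.48 in 151 papain CD301blo cDC2s. All cells of that class without a *Cd8a* UMI, receptor cells included, had medians of 0.524 and 0.354. The antibody side was read over all cells of each class, with receptor cells kept. There *Cd8a* went from 5.59 CPM in the lowest of 4 equal bins of naive CD301blo cDC2s by CD8a antibody to 245.7 CPM in the highest, where 55.8% of cells had a *Cd8a* UMI. In naive cDC1s it went from 0.425 to 73.2 CPM, with 22.1% of cells in the top bin. In papain CD301blo cDC2s it went from 0.942 to 102.3 CPM and in papain cDC1s from 2.51 to 136.3 CPM. Papain LCs went from 0.677 to 4.63 CPM. Naive LCs had no *Cd8a* UMI in the 3 lower bins and 12.9 CPM in the highest.

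*Cd3d* also differed along these bins. In naive CD301blo cDC2s it was at 4.73 CPM in the lowest and 12.9 CPM in the highest bin, and in papain LCs at 0.451 and 4.85 CPM. In naive cDC1s it went from 11.1 to 104.7 CPM, where the median CD8a antibody value of the 57 cells with 4 to 6 receptor genes was 0.586 against 0.318 in cDC1s with none.

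Over the 12 groups (5 classes and the cells without antibody data in 2 libraries) the level of 11439 genes was set beside the mean log2 level of the 6 receptor complex genes. The genes that tracked it most closely were *Bcl11b* (Pearson r 0.995), *Lat* (0.992), *Tox* (0.992), *Jakmip1* (0.990), *Ablim1* (0.990), *Klk8* (0.990), *Sh2d2a* (0.990) and *Sit1* (0.989). *Bcl11b* is a transcription factor of T cell commitment and *Lat* the adaptor that links the receptor to downstream enzymes. *Lck* stood at 0.989 and *Cd8b1* at 0.964, while *Cd4* stood at 0.815 and *Cd8a* at 0.579. The 12 groups share 2 libraries and the value rests largely on the 2 groups without antibody data, so it is a description only.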

How the data were processed

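Expression was measured by 10x 3′ v3 single-cell RNA-seq and 12 antibodies by CITE-seq in 2 libraries, 1 naive and 1 papain. Per the methods and labels, the authors used Cell Ranger 3.0.1, build mm10 and Partek. The authors deposited expression as log2(CPM + 1) per cell and antibody values as natural log, each centred within the cell. They also deposited the number of expressed genes as a count, a mitochondrial percent that is a share of log2 values, and a total that is a score (a sum of log2 values). These last 3 were not used for depth. UMI counts were recovered from the deposited log2 values: up to 50 UMIs, 100% came out whole within 0.02. The median depth was 13764 (naive) and 14738 (papain) UMIs per cell.

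UMIs were summed per library, class and label, and given as CPM with exact Poisson 95% intervals. Shares have Clopper-Pearson intervals, ratios exact conditional binomial intervals and medians order-statistic intervals, all for counting error only. With 1 library per condition there was no test: a gene was called at 2-fold among genes with at least 10 UMIs in both groups together, and a group at 0 was set to 3 UMIs. No cell was filtered and doublets were not removed. The ratios, calls, ratio intervals and thinning were tested on simulated counts. The recovery of UMI counts was not tested on simulated data. The members and the lists were chosen with earlier results of these data known. All 10 genes are named, together with the 4 highest and 4 lowest papain ratios of a list of 28 T cell genes and the 8 genes with the highest r over 12 groups among genes with at least 5 CPM in a group and 50 UMIs in all. Alternatives covered added CPM, per-cell means, scaling, gene and cell filters, thinning to 4000 UMIs and left-out cells. Promoter windows and coordinates came from RefSeq tables (GRCm38.p6). Python 3.11.15, numpy 2.4.6, scipy 1.17.1, pandas 2.3.3 and matplotlib 3.10.9 were used.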

Additional observations from a re-analysis of the deposited data

Results flagged for a closer look

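*Trac* and *Cd8a* differed in direction between classes. The papain over naive log2 ratio of *Trac* was 0.64 in CD301bhi cDC2s and -2.61 in cDC1s, and that of *Cd8a* was 0.87 in cDC1s and -1.71 in CD301bint cDC2s. The median over the 10 genes was -2.17 in the cells with a class and 1.25 in the cells without antibody data. Each group was 1 library per condition, so the difference was not tested in any of these 3 pairs.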

How the results depend on the processing

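Of 156 alternative values of the main results, 112 stayed within the limits set and 44 moved. A ratio or share stayed when it lay in the counting interval of the main value, and a count when it was close to the main count. None reversed, but counts and shares had no rule for a reversal. Only the *Cd8a* ratio and the CD8a antibody difference of cDC1s could reverse. Of 1086 values for single genes 821 stayed, 258 moved and 7 reversed, and of 60 class shares 20 stayed and 40 moved. Scaling to the median gene shifted ratios by 0.01 to 0.09 (log2). Count of genes at least 2-fold lower in the papain library: over all classes (10) it was 1 with 10 CPM added and 6 without labelled cells. Without labelled cells *Cd3e* and *Trac* had no UMI by construction and were not counted, here and in each class, so at most 8 genes could pass. In cDC1s (8) it was 4 without labelled cells and 3 without cells with 4 to 6 receptor genes, an alternative chosen after seeing the data. In the latter *Cd3e*, *Cd3g*, *Trbc1* and *Lck* had fewer than 10 UMIs and were not counted. In LCs (3) it was 1 with 1 CPM added, 0 with 10 CPM added and 0 among genes with at least 50 UMIs. That last filter left out all 3 genes of the main count, *Cd4*, *Cd8b1* and *Lck*. In CD301blo cDC2s (10) it was 2 with 10 CPM added and 6 without labelled cells. In CD301bint cDC2s (6) it was 3 with 1 CPM added, 1 with 10 CPM added and 3 by per-cell means. In CD301bhi cDC2s (3) it was 0 with 10 CPM added, 5 by per-cell means and 5 without cells with 4 to 6 receptor genes. Without antibody data, 8 genes higher became 0 by per-cell means and 3 without the deepest 5% of cells. By label, 7 (naive) and 8 (papain) became 3 and 5 without cells with 4 to 6 receptor genes.

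The share of cells with a receptor UMI in the naive classes (12.3%) was 4.50% for 2 or more UMIs, 3.88% for 2 or more genes, 27.5% for any of the 10 genes and 6.11% thinned. In naive cells without antibody data (62.2%) it was 56.4%, 55.5%, 70.6% and 56.0%, and 71.0% without the deepest cells. In the papain classes (8.03%) it was 1.52%, 0.958%, 17.1% and 2.69%, and in papain cells without antibody data (86.2%) it was 90.2% without the deepest cells. The log2 ratio of *Cd8a* in cDC1s over other classes was -1.41 (naive, from -0.88) and 1.16 (papain, from 1.65) without labelled cells, -1.31 and 1.10 without cells holding a receptor or *Cd8b1* UMI, -1.31 and 1.29 by per-cell means, and -1.11 and 1.13 without the top cell. The CD8a antibody difference in cDC1s (0.634 and 0.906) was 2.72 and 2.74 on the log2 share scale, which is another scale, and 1.45 for 2 or more UMIs in the naive library.

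Reversed values were *Cd4* in naive cells without antibody data against CD301blo cDC2s alone (-0.0016) and, without cells with 4 to 6 receptor genes, *Trac* by library in all classes (0.40), cDC1s (0.20) and CD301blo cDC2s (0.50), *Cd3d* by label (-0.90 naive, -0.12 papain) and *Trbc2* by label in the papain library (-0.36). The values by label follow largely from the label by construction, since most marked cells then left held *Cd3e* or *Trac* as their single receptor gene. Where no construction is given, the cause was not tested. No paired analysis was possible because each condition had 1 library and no replicate number. Several class values rest on few UMIs, such as 8 of *Cd8b1* in naive CD301bhi cDC2s, 6 of *Cd3g* in naive LCs and 7 of *Trbc1* in papain cDC1s.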

Other observations

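*Trbc1* and *Trbc2* were often found in the same cell, although a mature alpha-beta T cell uses a single constant gene for its beta chain. Of cells with at least 5 UMIs of the pair and no antibody data, 83 of 207 naive and 74 of 218 papain cells had at least 90% *Trbc2*, 7 and 10 had at least 90% *Trbc1*, and 117 and 134 lay between. In cells with a class 54 of 95 naive and 24 of 40 papain cells lay between. Reads of these near-identical genes may be divided, so the values describe the counting as well as the cells.

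In the authors' mRNA clusters of cDC2s, *Cd8a* was high in clusters with little *Cd3d*, such as naive cluster 2, and also in naive cluster 7, where *Cd3d* was high. Naive cluster 2 (432 cells) had *Cd8a* at 80.0 CPM and *Cd3d* at 0.643 CPM. Papain cluster 7 (375 cells) had *Cd8a* at 82.9 CPM, *Cd3d* at 4.40 CPM and no *Cd4* UMI. Naive cluster 5 (246 cells) had *Cd8a* at 82.1 CPM and *Cd4* at 33.2 CPM, with *Cd4* in 30.1% of cells. Naive cluster 7, of 50 cells, had *Cd3d* at 143.2 CPM, *Cd8b1* at 83.7 CPM and *Cd8a* at 70.5 CPM, with *Cd8a* in 44% of cells. Papain cluster 9 (216 cells) had *Cd3d* at 21.5 CPM and *Cd8a* at 18.5 CPM.

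Naive cDC2s with a *Cd4* UMI and no T cell UMI also had higher macrophage and monocyte markers. The 5 markers summed to 5152 CPM in 25 CD301bhi cells with *Cd4* against 439.4 CPM in 619 without, to 4659 against 310.2 CPM in CD301bint cells (45 and 540) and to 1643 against 723.7 CPM in CD301blo cells (51 and 510). In the papain library the sums were 309.6 against 37.9 CPM in CD301bhi cells (26 with *Cd4*) and 107.5 against 117.8 CPM in CD301blo cells (8 with *Cd4*).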
